A study of Mus musculus with 54 samples.

Results

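The microRNA names mir-5105, mir-5109 and mir-5115 take up 49 of the 2602 rows of the small RNA table. The members are every row that carries 1 of these names, with or without a suffix. They comprise 17 rows of mir-5105, 17 of mir-5109 and 15 of mir-5115. Each name has 1 row without a suffix, called the plain row here, and further rows with suffixes from -8 to +8 (to +6 for mir-5115). No source used here says what the suffix means. The names were chosen by their deposited values, in the light of earlier results of these data that had marked them as possible fragments of structural RNA. Their levels over the groups, and the Sox9-EGFP Low with Negative, crypt with villi and APC contrasts in which those results had named member rows, are therefore given as descriptions without a test. The Lgr5-High with Cd24-Low and germ-free with conventionalized contrasts had named none of them and were tested. Values of all groups were known when the names were chosen, so these tests are not independent evidence.

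All small RNA libraries came from the small intestine of C57BL/6J mice, and no ages are given for them. Of the 54 samples in the series, 30 small RNA libraries in 8 groups are used here. Sorted intestinal cells are represented by 4 Cd24-Low libraries and by 2 Lgr5-High libraries, whose titles read Lgr5 and whose source reads Lgr4. Crypt cells sorted for a Sox9-EGFP reporter, a fluorescent protein under Sox9 control, comprise 4 Low and 4 Negative libraries from the same 4 mice on chow. In the third of these mice both column names read HFD while the labels read chow. Sox9-EGFP Low cells were also taken from 4 germ-free mice, which carry no microbes, and from 4 conventionalized mice, to which a microbiota was given. The last groups are 4 libraries of dissected crypts and 4 of dissected villi. A further 2 APC mutant and 2 control samples appear only as averages in the authors' deposited table. APC is the tumour suppressor that restrains Wnt signalling in the intestine. The labels say neither whether animals were pooled nor how the microbiota was transferred, and where they name no animals, p-values measure only the spread between these libraries. Lane numbers come from the column names, which do not say whether lanes of the same number were sequenced together.

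A microRNA is cut from a hairpin precursor by Drosha and Dicer, so most of its reads begin at the same base, and its seed, bases 2 to 8, pairs with target messages. Ribosomal, transfer, small nuclear and small nucleolar RNAs are abundant structural RNAs whose breakdown products can fall in the same size range as microRNAs. A read of such a product can be counted under a microRNA name when its sequence matches the name's precursor. No target or function of the 3 names is assumed here.

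Sequence could be compared with structural RNA only for names in the RefSeq microRNA table used here (GRCm38.p6), in which 0 of the 3 names matched an entry. Of its 1679 mature names, 18 (1.07%) were identical over their full length, on either strand, to a stretch of 1 of 3317 annotated structural RNA transcripts, and 0 of them matched ribosomal RNA. Of the matching names, 7 had rows in the small RNA table. The 3 sequences below are shown because these names had the highest summed means of the 7, and capitals mark the seed.
mmu-miR-1843b-5p: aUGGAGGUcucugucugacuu
mmu-miR-1843b-3p: cCGAUCGUuccccuccauac
mmu-miR-5121: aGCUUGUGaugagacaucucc
The first lies at chr1:159340362-159340382 and the second at chr1:159340400-159340419, both on the plus strand, and both are contained in Scarna3a, a small Cajal body RNA. The third lies at chr7:45126925-45126945 on the minus strand and is contained in Snord33, a small nucleolar RNA. In the small RNA table the largest row of mir-1843b-3p held 54.9% of that name's total and its plain row was listed at 0 in every library. The largest row of mir-1843b-5p held 68.7% and its plain row 21.0%, and the largest row of mir-5121 held 80.4%. The next name by level, mir-664-5p, had 70.2% in its plain row.

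The signal of the 3 names was divided over many rows, most evenly for mir-5109 and mir-5105. The values are in RPMMM, the authors' unit, in which every library has about the same total. Over all 30 libraries the largest row held 11.4% of the mir-5109 total, 13.9% of the mir-5105 total and 40.1% of the mir-5115 total. The plain row held 7.21%, 3.39% and 40.1%. Among the 172 other names with a summed mean of at least 50 RPMMM, the median share of the largest row was 98.0%. None of these 172 names had a lower share than mir-5109 or mir-5105, and 2 had a lower share than mir-5115. Those 2 were mir-5117-3p at 15.8% and mir-5102 at 29.98%, which stand close to the members in number.

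**Figure D1:**
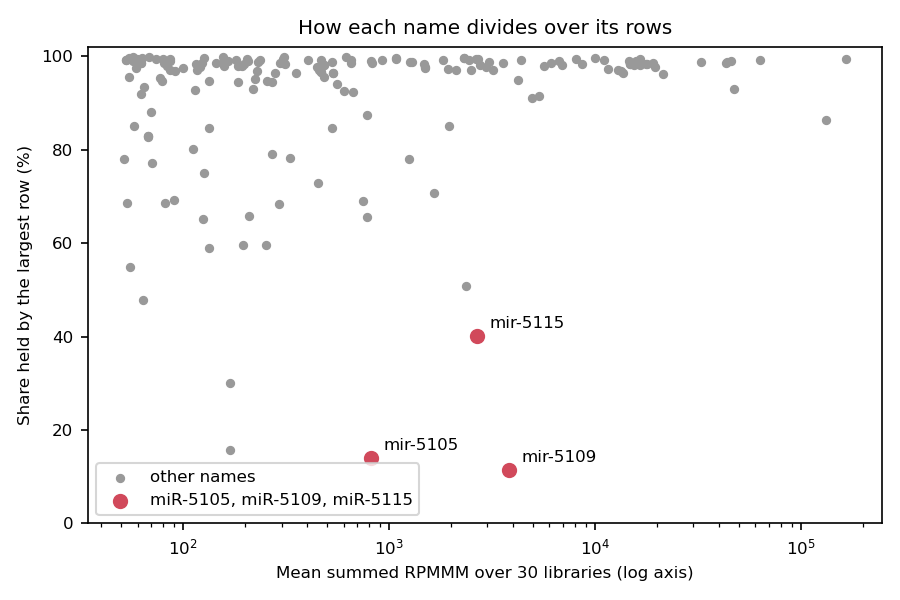
Each point is 1 microRNA name with a summed mean of at least 50 RPMMM. The x axis (log scale) gives its mean summed RPMMM over 30 libraries and the y axis the percentage of that total held by its largest row. The 3 members, in red, sit at 11.4%, 13.9% and 40.1%, against a median of 98.0% over the 172 other names.

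Among the 5 other names with 15 or more rows and a summed mean of at least 10 RPMMM, 4 were also divided, with largest rows of 14.6% (mir-208b-3p), 15.8% (mir-5117-3p), 21.4% (mir-3068-3p) and 29.98% (mir-5102). The exception was mir-378-3p, with 17 rows and a summed mean of 21463 RPMMM, whose plain row held 96.3%. Of the other 155 rows with numbers from mir-5097 to mir-5136, belonging to 29 names, only 4 names had a summed mean of at least 50 RPMMM. They were mir-5099 at 2502 RPMMM, mir-5117-5p at 451 RPMMM, mir-5102 at 169 RPMMM and mir-5117-3p at 168 RPMMM. Another 24 names stayed under 10 RPMMM.

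Within each name the row that was largest changed between libraries. For mir-5105 it was the row with suffix +6 in 13 libraries, that with -8 in 11, that with +8 in 4, and those with +1 and +2 in 1 library each. Its largest share ranged from 9.99% to 32.5% of the mir-5105 total in a library. For mir-5109, 7 different rows were the largest in at least 1 library, led by suffix -4 in 9 libraries and by +3 and +4 in 6 each, with shares between 10.8% and 22.0%. The plain row of mir-5109 was the largest in 1 library. For mir-5115 the plain row was the largest in 25 libraries, the row with suffix -8 in 3 and that with -7 in 2, with shares between 34.4% and 47.9%.

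The mir-5105 profile had its high rows away from the plain row. Over all libraries suffixes -8, -7 and -6 held 13.9%, 7.86% and 9.60% of its total, and suffixes +5, +6 and +7 held 8.53%, 13.9% and 8.65%. The rows -5 and -4 between them held 0.727% and 0.714%. Because -8 is the last row listed on that side, the profile ended at 1 of its highest values. The mir-5109 profile was spread from -6 to +5 and dropped on the plus side, where the rows +6 and +8 held 0.266% and 0.235%. The mir-5115 profile had 2 separate high stretches, with 40.1% and 18.7% in the plain and +1 rows and 11.3% and 13.5% in the rows -8 and -7. The rows between these stretches, from -5 to -2, held at most 1.00% each.

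**Figure D2:**
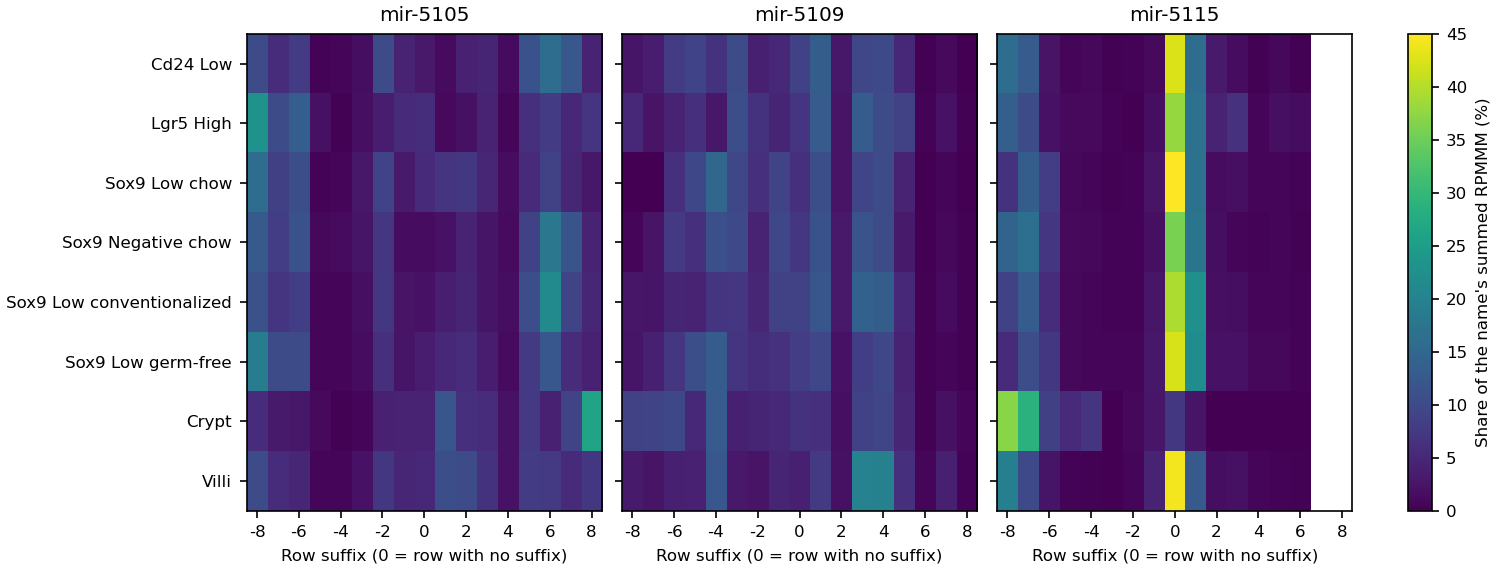
Heat maps of the percentage of each name's summed RPMMM (colour) held by each row, by suffix (x axis, 0 for the plain row) and group (y axis, from group means). In mir-5115 the plain row is the brightest in every group but the crypts, where it holds 7.36% and the row with suffix -8 holds 36.9%. The white columns are suffixes that mir-5115 does not have.

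Crypts had other leading rows than the remaining groups in 2 of these profiles. By group mean, the plain row of mir-5115 held 7.36% of its total in crypts and between 35.9% and 45.3% in the 7 other groups. The second Negative library was like the crypts, with row -8 the largest, at 36.1% of its mir-5115 total of 314.16 RPMMM. Its plain row stood at 41.55 RPMMM and its rows +3 to +6 at 0. The 4 crypt libraries listed the plain row at 6.12, 2.94, 15.6 and 3.31 RPMMM, and the 4 villus libraries listed it at 325, 185, 559 and 519.8 RPMMM. All crypt values thus lay below all villus values. The crypt libraries listed 5 of the plus-side rows, +2 to +6, at 0. The row mir-5105_+_8 held 26.3% of the mir-5105 total in crypts and between 2.89% and 7.27% in the other groups. It stood at 83.9, 87.1, 58.8 and 60.1 RPMMM in crypts, above the 9.18 to 20.7 RPMMM of villi.

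Together the members made up between 0.151% and 2.77% of a library. The lowest share was in an Lgr5-High library and the highest in the third Sox9-EGFP Negative library. In bulk samples fewer cells of a type and less RNA per cell cannot be told apart, and as RPMMM values are shares of a library, they also move when other small RNAs do. Of the 49 rows, 38 reached a mean of 50 RPMMM in at least 1 group (13 of mir-5105, 15 of mir-5109 and 10 of mir-5115). The other 11 stayed at group means of at most 38.5 RPMMM, and their highest single value was 77.2 RPMMM. The nearest row inside this limit was the plain row of mir-5105, whose highest group mean was 50.8 RPMMM, and the nearest outside was mir-5115_+_5 at 38.5 RPMMM.

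By group mean, the summed level of mir-5105 was higher in all 6 groups of sorted cells than in dissected crypts and villi. It was 919.5, 2764, 767 and 298 RPMMM in Cd24-Low, and 309 and 1070.5 RPMMM in Lgr5-High libraries. In chow mice it was 724, 613, 1983 and 399 RPMMM in Sox9-EGFP Low, and 368, 309.8, 2857 and 1730.3 RPMMM in Sox9-EGFP Negative cells. These 4 groups overlap one another, and single groups span most of the range, as Cd24-Low does from 298 to 2764 RPMMM. Germ-free mice had 1128, 957, 1472 and 1125 RPMMM, and conventionalized mice 395, 421, 949 and 852 RPMMM. Crypts had 288, 365, 266 and 185 RPMMM, and villi 200.5, 180.5, 368 and 105 RPMMM. By mean the order was Negative (1316 RPMMM ± 1219, SD, n = 4), Cd24-Low, germ-free, Low on chow, Lgr5-High, conventionalized, crypts and villi (214 RPMMM ± 111, n = 4). Neighbouring groups in this order overlapped, except that all conventionalized libraries lay above all crypt libraries.

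The summed level of mir-5109 had the highest mean of the 3 names in 6 of the 8 groups. It was 4802, 10107, 5835 and 2674 RPMMM in Cd24-Low, and 749 and 1637 RPMMM in Lgr5-High libraries, so these groups did not overlap. In chow mice it was 2782, 2419.9, 3292 and 2226 RPMMM in Low, and 4783, 3574, 12708 and 10883 RPMMM in Negative cells. All Negative libraries lay above all Low libraries. Germ-free mice had 2285, 2742, 4910.2 and 5249 RPMMM, and conventionalized mice 1424, 1527, 2107 and 4042 RPMMM. Crypts had 3027, 1502, 2057 and 2717 RPMMM, and villi 3369.6, 1839, 4287 and 2378 RPMMM. Both of these pairs overlapped. The order by mean ran from Negative (7987 RPMMM ± 4488, n = 4) through Cd24-Low, germ-free, villi, Low on chow, crypts and conventionalized to Lgr5-High (1193 RPMMM ± 628, n = 2), and each group overlapped with the next.

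The summed level of mir-5115 covered the widest range, from 35.6 to 12141 RPMMM. It was 2129, 6233, 1391 and 779 RPMMM in Cd24-Low, and 451 and 1224 RPMMM in Lgr5-High libraries. In chow mice it was 2255, 2235, 3685 and 1121 RPMMM in Low, and 1557, 314.16, 12141 and 10073 RPMMM in Negative cells. Of the 4 Negative libraries, 2 lay above all Low libraries and 1 below all of them. Germ-free mice had 3906, 3038, 4772 and 3883 RPMMM, and conventionalized mice 3099, 3219.8, 4474 and 4006 RPMMM. Crypts had 88.8, 121, 133 and 35.6 RPMMM, and villi 759, 534, 1167 and 1137 RPMMM. The order by mean was Negative (6021 RPMMM ± 5955, n = 4), germ-free, conventionalized, Cd24-Low, Low on chow, villi, Lgr5-High and crypts (94.8 RPMMM ± 43.7, n = 4). Only the last 2 groups of this order did not overlap.

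**Figure D3:**
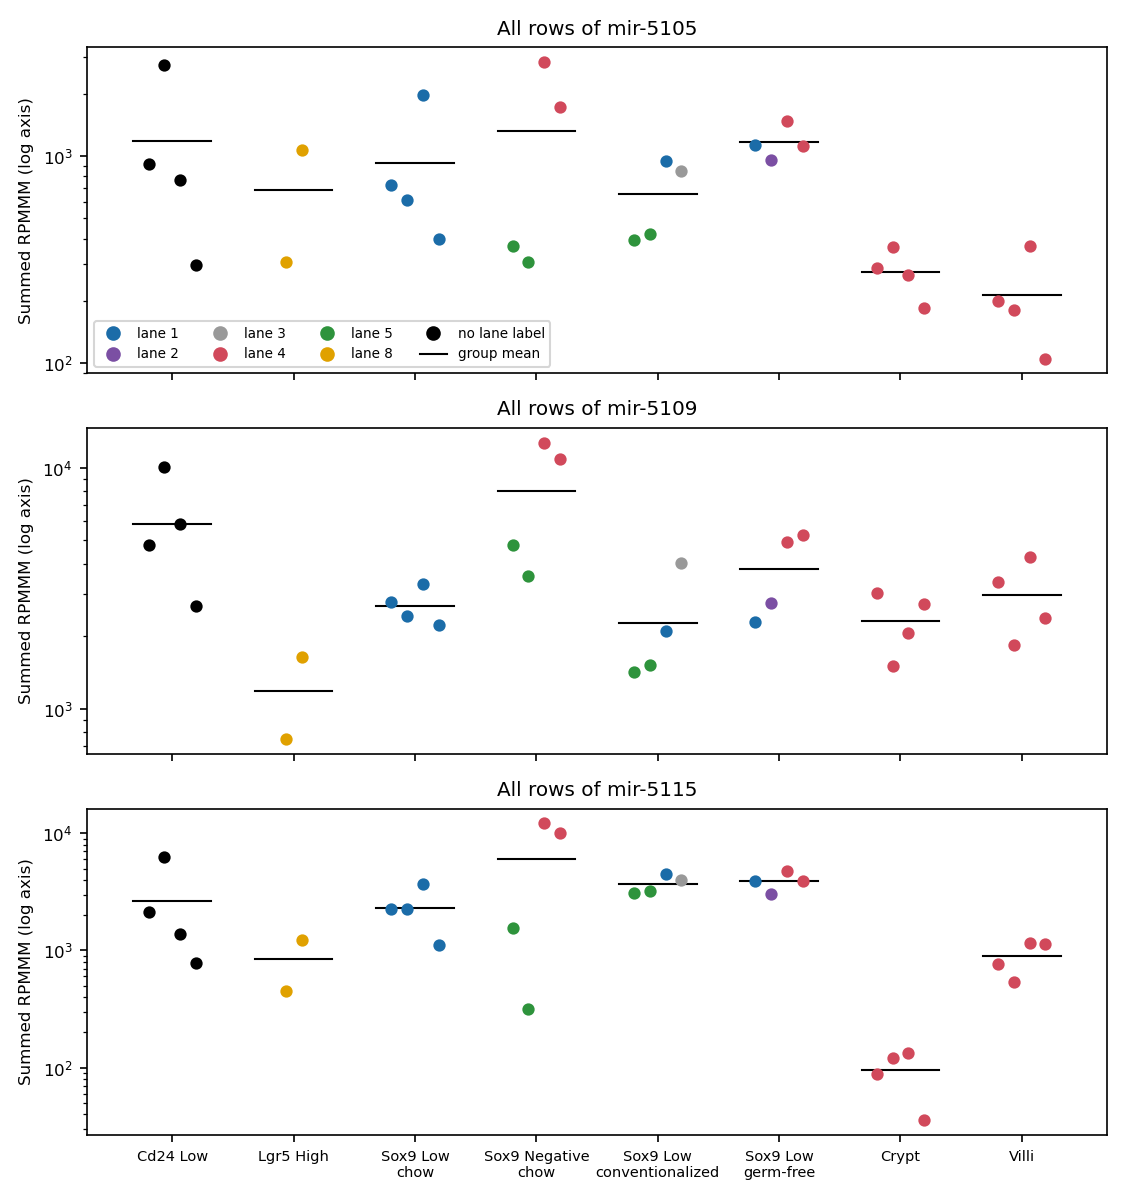
Summed RPMMM of all rows of each name (y axis, log scale) in each of 30 libraries, by group (x axis). Points are libraries coloured by sequencing lane where the column name gives one, and bars are group means. The mir-5115 values of the crypts lie between 35.6 and 133, below those of every other group.

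The 3 names did not keep a fixed ratio to one another. The ratio of the mir-5115 total to the mir-5109 total was 0.0131 to 0.0809 in crypts, 0.225 to 0.478 in villi, 0.603 to 0.748 in Lgr5-High, and 0.991 to 2.18 in conventionalized libraries. The crypt and villus ranges did not overlap, although all 8 of these libraries were in lane 4. In Negative libraries the ratio ran from 0.0879 to 0.955. The ratio of mir-5105 to mir-5109 ran from 0.0442 in a villus library to 0.654 in an Lgr5-High library. Over the 30 libraries, Pearson's r of log2(sum + 1) was 0.748 between mir-5105 and mir-5115, 0.577 between mir-5105 and mir-5109, and 0.469 between mir-5109 and mir-5115. Libraries of 1 mouse, lane or group are among these 30 points, and all values are shares of a library.

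Among 231 other rows with a mean of at least 50 RPMMM, mir-5102_-_6 was the most like both mir-5105 (r = 0.683) and mir-5115 (r = 0.742) over the 30 libraries. For mir-5105 it was followed by mir-141-3p_-_1 (0.611), the plain mir-141-3p (0.598), mir-192-5p_+_2 (0.562) and mir-25-3p_+_1 (0.548). The miR-200 family, to which miR-141 belongs, marks epithelial cells. For mir-5115 the next rows were mir-30e-5p (0.715), mir-30b-5p (0.674), mir-192-5p_+_1 (0.662) and mir-25-3p_+_1 (0.653). For mir-5109 the rows were mir-215-5p_+_5 (0.653), mir-215-5p (0.590), mir-22-3p (0.543), mir-194-1-5p_+_1 (0.533) and mir-215-3p (0.486). The microRNAs miR-192, miR-194 and miR-215 are abundant in intestinal epithelium.

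Rows at the minus end of mir-5109 were listed at 0 in 11 of the 30 libraries. In all 11 the zeros formed an unbroken run that began at suffix -8, and the run ended at -8 in 2 libraries, at -7 in 4, at -6 in 2 and at -5, -4 and -3 in 1 library each. The row just past the run was listed at 78.2 to 404 RPMMM, while the smallest value above 0 in the same libraries was 1.42 to 5.92 RPMMM. In the first germ-free library, for example, the rows -8 to -3 stood at 0 and the row -2 at 183.35 RPMMM. In the third germ-free library the same rows -8 to -3 were listed at 377, 233, 461, 624, 706 and 406 RPMMM. No library listed any row from -2 to +5 at 0. On the plus side, +6 was at 0 in 1 library and +8 in 2.

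By lane number, all 6 libraries of lane 1 had a run, as did the single lane 2 library and 4 of the 12 lane 4 libraries. The lane 4 column names of crypts and villi differ in format from the others, and whether all were sequenced together is not given. None of the 4 lane 5, 2 lane 8, 1 lane 3 or 4 lane-less libraries had one. All 4 Sox9-EGFP Low chow libraries had a run and all were in lane 1. Estimated depth, known for 10 libraries with a run and 12 without, in units of 1000000 reads, was 3.48 to 14.3 (median 5.95) with a run and 7.26 to 14.4 (median 10.3) without. The part of lane or depth in the runs was not tested. Where a mir-5109 row had zeros in the libraries compared, no fitted difference of that row is given, and the summed level of mir-5109 was also taken over the rows -2 to +8 alone, an alternative chosen after seeing the data.

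**Figure D4:**
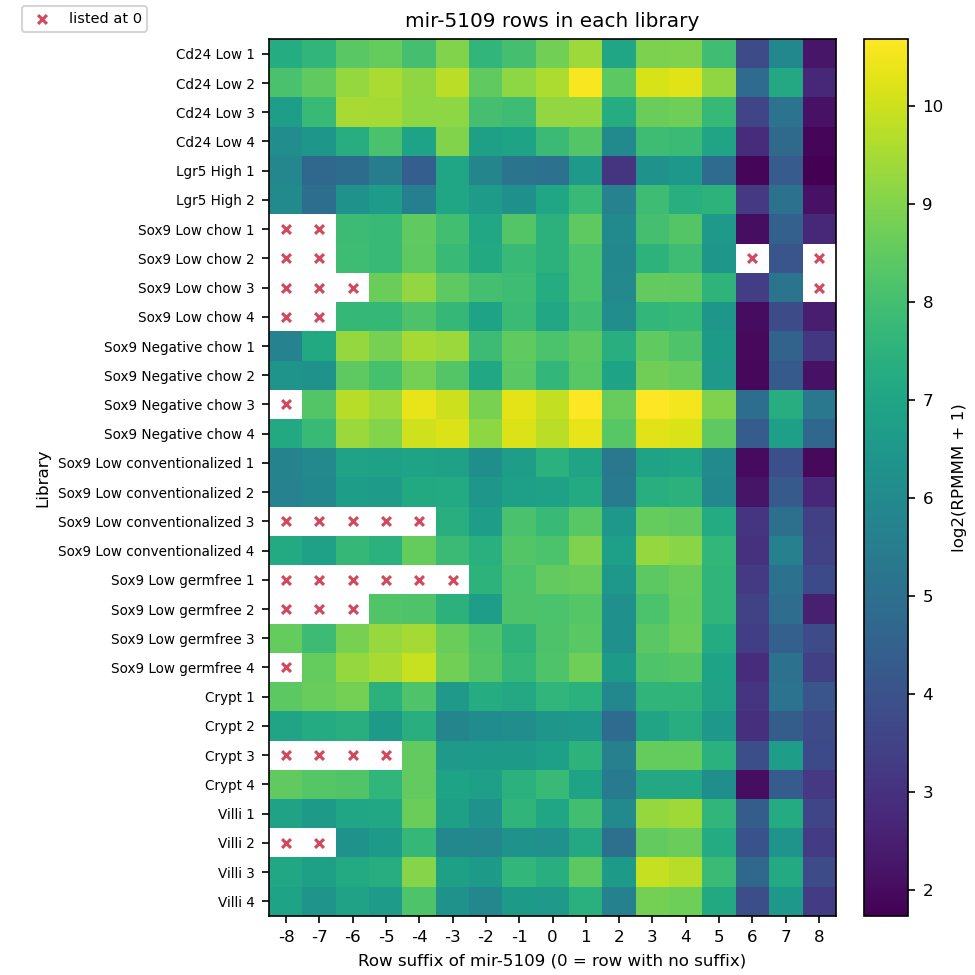
log2(RPMMM + 1) of the 17 mir-5109 rows (x axis, suffix, 0 for the plain row) in each of 30 libraries (y axis). Red crosses mark rows listed at 0. Crosses on the left form unbroken runs from suffix -8 in 11 libraries, up to suffix -3 in the first germ-free library.

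The first tested comparison, between 2 Lgr5-High and 4 Cd24-Low libraries, sets cells sorted for a high level of an intestinal stem cell receptor beside cells with little of the surface protein Cd24. Values of both groups were known when the names were chosen, so the p-values are not independent evidence. Rows of mir-5109 were lower in Lgr5-High cells. The plain row was 33.4 and 127 RPMMM in Lgr5-High and 438, 759, 599 and 226 RPMMM in Cd24-Low libraries, so the groups did not overlap. The difference was -2.80 ± 0.62 (SE) on the log2(RPMMM + 1) scale, with an adjusted p of 0.00964 in limma. The row mir-5109_-_3 was 129 and 128 RPMMM in Lgr5-High against 507, 863, 577 and 510.0 RPMMM in Cd24-Low libraries. Its difference was -2.21 ± 0.28, with a limma adjusted p of 0.00123, the smallest among the members. The row mir-5109_-_4 had the lowest difference, -3.33 ± 0.68 in log2 (limma adjusted p = 0.00713), at 20.2 and 47.5 RPMMM in Lgr5-High and 263, 587, 565 and 121 RPMMM in Cd24-Low libraries.

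In all, 11 of 28 member rows passed a limma adjusted p of 0.05, all lower in Lgr5-High, and all 11 were mir-5109 rows, out of 15 of that name tested. Over all 236 rows tested, 22.5% passed in that direction and 39.4% in either. The 11 rows were the plain row, +1, +2, +4 and those from -1 to -7, with differences between -1.51 and -3.33. None of the 8 mir-5105 rows passed, with differences from -1.98 to 0.72, nor did any of the 5 mir-5115 rows, from -1.97 to -0.99, with an unadjusted limma p under 0.05 for 2 rows of each. The median difference was -1.74 over the 28 member rows and -0.17 over all 236. The rows of a name share that name and are not independent. With all rows of a name summed, mir-5109 was lower by 2.24 ± 0.50 in log2 (limma adjusted p = 0.00649), while mir-5105 at -0.60 ± 0.78 (0.559) and mir-5115 at -1.39 ± 0.73 (0.163) did not pass. Whether the 3 names differ in this contrast was not tested.

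The 2 Lgr5-High libraries were both in lane 8 and the Cd24-Low columns name no lane, so lane and group cannot be told apart. When all 8 groups shared 1 estimate of spread, 6 of the 11 rows passed along with 3 others, and the 5 rows from mir-5109_-_3 to mir-5109_-_7 did not, at the same differences. Without the first Lgr5-High library the median difference was -1.02 over the member rows tested and -0.26 over all rows tested. Without the second Lgr5-High library these medians were -2.34 and -0.25. Each of these fits leaves only 1 Lgr5-High library, so no calls are given for them. Without the fourth Cd24-Low library 21 member rows passed, all lower, against 64 of all rows in that direction. The second Cd24-Low library had the highest sum of all 3 names and also the highest sum of 5 leukocyte microRNA names, 3168 RPMMM against 105 to 273 RPMMM in the other Cd24-Low and 191 to 260 RPMMM in the Lgr5-High libraries. Without it 12 of 24 member rows passed, all lower, against 69 of all 228 rows in that direction. The 5 mesenchymal names summed to 249 to 799 RPMMM in Cd24-Low and 13.2 to 13.4 RPMMM in Lgr5-High libraries, where mir-145 and mir-214 were listed at 0, and their part in the result was not tested. An exact two-sided permutation test of a single row could not go below p = 0.133 with 2 against 4 libraries, and gave 0.133 for each of the 11 rows.

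Germ-free and conventionalized Sox9-EGFP Low cells, 4 libraries each, ask what microbes change in the crypt. These values too were known when the names were chosen, so the p-values are not independent evidence. Few member rows passed in limma. The row mir-5105_-_8 was 197, 192, 287 and 211 RPMMM in germ-free and 49.4, 37.9, 127 and 78.5 RPMMM in conventionalized libraries, with no overlap. It was higher in germ-free mice by 1.72 ± 0.36 in log2(RPMMM + 1), with a limma adjusted p of 0.00561. The exact permutation test, two-sided, gave p = 0.0286, the smallest that 4 against 4 libraries allow. The row mir-5105_-_7 was 86.9, 99.0, 195 and 106 RPMMM in germ-free and 32.1, 25.0, 66.3 and 56.2 RPMMM in conventionalized libraries, again with no overlap. It was higher by 1.45 ± 0.39, with a limma adjusted p of 0.0150. The row mir-5115_-_8 was lower in germ-free mice by 0.60 ± 0.20 in log2 (limma adjusted p = 0.0364). It stood at 178, 179, 286 and 232 RPMMM in germ-free and at 351, 344, 338 and 277 RPMMM in conventionalized libraries, which overlap.

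Of 29 member rows tested, 2 rose and 1 fell in germ-free mice, against 13.9% of all 252 rows higher and 28.6% lower (35 and 72 rows, which median-of-ratios scaling turned into 55 and 64). The members' share of 3 in 29 is below that of all rows, 42.5% of which passed in either direction. The 29 include the mir-5109 rows -8 to -3, each listed at 0 in at least 1 of these libraries. Their SEs were 1.70 to 2.63 in log2, so these rows could hardly pass, and no conclusion is drawn from the shares. With the libraries scaled by median of ratios, 5 member rows passed, all higher, and mir-5115_-_8 no longer did. Its call was also lost without conventionalized library 1, 2 or 3 and without germ-free library 1, 2 or 4. None of the 14 mir-5109 rows tested passed in limma, and 2 had an unadjusted p under 0.05. These 14 include the rows with runs of zeros in 3 germ-free libraries and 1 conventionalized library. The plain mir-5109 row was 372, 283, 287 and 297 RPMMM in germ-free and 175, 115, 218 and 283 RPMMM in conventionalized libraries, which differed by 0.71 ± 0.27 (limma adjusted p = 0.0580). The plain mir-5115 row differed by 0.21 ± 0.23 (limma adjusted p = 0.491). The median difference was 0.39 over the members and -0.18 over all rows.

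Summed over its rows, mir-5105 was higher in germ-free mice by 0.93 ± 0.31 in log2 (limma adjusted p = 0.0278), and all 4 germ-free libraries lay above all 4 conventionalized ones. The sums of mir-5109 (0.78 ± 0.38, adjusted p = 0.102) and mir-5115 (0.07 ± 0.19, adjusted p = 0.760) did not pass in the same limma fit. The germ-free libraries were in lanes 1, 2 and 4 and the conventionalized ones in lanes 1, 3 and 5, so lane 1 alone held both groups, with 1 library each. In lane 1 the germ-free and conventionalized libraries had mir-5105 sums of 1128 and 949 RPMMM, mir-5109 sums of 2285 and 2107 RPMMM, and mir-5115 sums of 3906 and 4474 RPMMM. The 5 mesenchymal names summed to 58.2, 79.1, 32.7 and 74.8 RPMMM in germ-free and to 149, 461, 141 and 364 RPMMM in conventionalized libraries, with no overlap, and mir-214 was at 0 in both. Their part in the result was not tested. The leukocyte names overlapped, at 111 to 267 and 136 to 337 RPMMM. Without the fourth conventionalized library, from lane 3, 8 of 30 member rows passed, 7 of them higher, against 132 of all 254 rows, 54 of them higher. No member row passed when all 8 groups shared 1 estimate of spread in limma, with 2 at an unadjusted p under 0.05.

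Sox9-EGFP Low cells are known to include crypt stem and progenitor cells, while Negative cells lack the reporter signal. As these groups entered the choice of the names, their values are described by mouse. In the first and second mouse, whose Negative libraries were in lane 5, the mir-5115 sum was higher in Low than in Negative cells, at 2255 against 1557 and 2235 against 314.16 RPMMM. In mice 3 and 4, whose Negative libraries were in lane 4, it was lower in Low cells, at 3685 against 12141 and 1121 against 10073 RPMMM. The mir-5105 sum had the same pattern, with 724 against 368 and 613 against 309.8 RPMMM in the first pair of mice, and 1983 against 2857 and 399 against 1730.3 RPMMM in the other pair. The mir-5109 sum was lower in Low than in Negative cells in all 4 mice, with differences of -0.78 and -0.56 in log2 for Negative libraries in lane 5 and of -1.95 and -2.29 for those in lane 4. These directions are those of RPMMM. Under median-of-ratios scaling the mean difference over the 4 mice was -1.10 for mir-5105 and -1.31 for mir-5115, in place of -0.17 and -0.38.

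**Figure D5:**
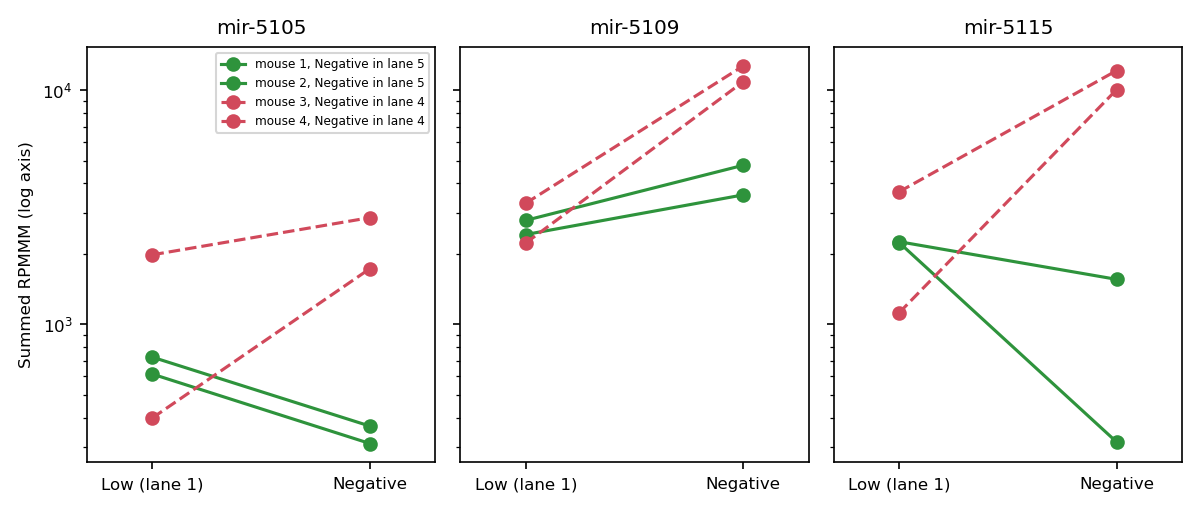
Summed RPMMM (y axis, log scale) of each name in Low and Negative cells of 4 chow mice, with a line for each mouse. Green solid lines are mice with Negative libraries in lane 5 and red dashed lines those with lane 4. The lines for mir-5105 and mir-5115 slope down in green and up in red, and all 4 lines for mir-5109 slope up.

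Over the 38 rows that reached 50 RPMMM in a group, 23 and 24 were higher in Low cells in the first and second mouse, against 5 and 0 in mice 3 and 4. The median differences by mouse were 0.09, 0.68, -1.67 and -2.51 in log2. By its median row, the table leaned toward Low cells in RPMMM. Over the 4 mice the median difference was 0.84 over all 221 rows with a mean of at least 50 RPMMM and -0.91 over the 28 member rows among them. No median or count over all rows was taken for single mice, so the counts by mouse have no background beside them. The 38 rows belong to the 3 names and are not independent of their sums. They include mir-5109_-_8 and mir-5109_-_7, listed at 0 in all 4 Low libraries. All Low libraries were in lane 1, so no lane held both groups, and lane and group cannot be told apart. Over the 4 mice, 5 of 28 member rows with a mean of at least 50 RPMMM had all Low values below all Negative ones, and 0 the reverse. Of the 221 such rows in the table, 62.0% separated the groups in either direction, and shares by direction were not counted. Leukocyte names summed to 258 to 291 RPMMM in Low and to 0 to 10.7 RPMMM in Negative cells, with mir-150 and mir-223 at 0 in both. Names of intestinal epithelium summed to 259801 to 443814 RPMMM in Low and to 736180 to 764161 RPMMM in Negative cells, and their part in these values was not tested.

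Crypts hold the stem and progenitor cells and villi the differentiated cells of the intestinal lining. The crypt minus villus difference of the mir-5115 sum was -3.32 on the log2 scale (94.8 RPMMM ± 43.7 against 899 RPMMM ± 306, SD, n = 4 each). This difference was larger than the spread of either group, and both groups carried the same lane number. The sums of mir-5105 (276 RPMMM ± 73.9 against 214 RPMMM ± 111) and mir-5109 (2326 RPMMM ± 682 against 2968 RPMMM ± 1084) differed by less than that spread and overlapped. Of 19 member rows with a mean of at least 50 RPMMM, 5 had all crypt values below all villus values and 0 the reverse. Of the 239 such rows in the table, 40.6% separated the groups in either direction, and shares by direction were not counted. The median crypt minus villus difference was 0.39 in log2 over the 239 rows and -0.70 over the 19 member rows. Names of intestinal epithelium summed to 137752 to 189570 RPMMM in crypts and to 354138 to 519278 RPMMM in villi. Mesenchymal names summed to 14358 to 27429 and 6059 to 54432 RPMMM, leukocyte names to 1349 to 3107 and 428 to 599 RPMMM, and red cell names to 781 to 1275 and 117 to 592 RPMMM, with mir-451 at 0 in both. Their part in the result was not tested.

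In the authors' deposited table of APC mutant and control tissue, 47 of the 49 member rows had a higher mutant than control average. The averages have no spread per group there. Summed over rows, the authors' deposited table gave 11547 in the mutant against 72.7 in the control for mir-5105, 40357 against 8894 for mir-5109, and 76647 against 4658 for mir-5115. The ratios of these sums were 159, 4.54 and 16.5. The first has a control sum in which 14 of the 17 mir-5105 rows were listed at 0, so its size is uncertain. The authors' adjusted p was under 0.05 for 34 member rows in their deposited table, all higher in the mutant (14 of mir-5105, 11 of mir-5109 and 9 of mir-5115), against 14.0% of its 1060 rows in that direction. Members made up 9 of the 10 rows with the smallest adjusted p in the authors' deposited table. As the rule used this table, nothing is read from these counts.

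Among the members, the largest mutant averages in the authors' deposited table were 26172 for mir-5115_-_7 and 18758 for the plain mir-5115 row, against control averages of 1634 and 648. In the control average the largest mir-5115 row was -8, at 1655. The row mir-5105_+_4, which held 1.43% of the mir-5105 total over the 30 libraries, held 34.6% of it in the mutant average. In the control average 14 of the 17 mir-5105 rows were listed at 0, so no fold is given for them. The mir-5109 rows -8 and -7 were also listed at 0 in the control average of the authors' deposited table, next to 1118 for -6, and stood at 262 and 407 in the mutant average. Their fold changes in the authors' deposited table, of 32.7 and 37.2 in log2, are fits against 0 and give no size. The base mean lay outside the range of both averages for 610 of the 1060 rows and for 4 of the members, and no source used here says which libraries entered it.

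The mRNA libraries of germ-free and conventionalized Sox9-EGFP Low cells gave values for a list of genes. Among others, it held genes at the ribosomal RNA locus, mitochondrial ribosomal RNAs and Lars2, a protein-coding gene outside that locus. Of 13 genes listed, 8 were in the table and 6 had a mean of at least 10 normalized counts. None of the 6 passed in limma, and 1 had an unadjusted p under 0.05. Over all 20214 genes 2.24% (453) passed, and without the first germ-free library 1 gene did, which was not of the list. The listed gene with an unadjusted limma p under 0.05 was Gm42418, which overlaps the ribosomal RNA locus. Its mean was 3440 ± 1511 in germ-free libraries and 5797 ± 1852 in conventionalized ones, in normalized counts (SD, n = 4 each). The log2 difference was -0.80 ± 0.34 (limma adjusted p = 0.225). The other 5 genes were Gm26917, CT010467.1, Lars2, mt-Rnr1 and mt-Rnr2, with limma adjusted p-values from 0.708 to 0.979. These are other libraries and another kit than the small RNA libraries.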

How the data were processed

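Small RNA libraries followed the TriLink CleanTag kit and mRNA libraries a SMARTer Ultra Low Input kit with Nextera XT, per the labels' protocols. The small RNA values were deposited by the authors as RPMMM, an RPM unit whose columns sum to about 1000000. The mRNA values are a signal, counts normalized by the authors in a way that no source used here describes. The authors' deposited APC table gives log2 fold changes, p-values, mean signals per group, and a base mean used only as a score. The submitters' processing notes name Cell Ranger, DESeq2, STAR, Salmon and mm10 for the series without a role. The aligner and counting of the small RNA reads are not given in the sources, so how reads shared by several names or rows were counted is unknown. A further 4 columns of the small RNA file match no sample and were not used, and single-cell files were not used. Of the mRNA rows, 381 carry no gene name, hold 0.0338% to 0.0804% of a library and were left out.

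Whole reads could not be recovered: 48.6% to 94.4% of low values per library were whole multiples of 1 step within at most 0.2 reads. In 22 libraries with at least 80% whole, the step gave an estimated depth of 3.48 to 14.4 (in 1000000 reads), and depth is otherwise unknown. The count test was therefore not run. Comparisons used limma 3.58.1 (R 4.3.3) with a trend on log2(value + 1), on rows with a mean of at least 50 RPMMM (genes of at least 10 normalized counts) over the libraries compared, and Benjamini-Hochberg adjustment over all rows, with a call at an adjusted p under 0.05. Fold changes on this scale understate the change of low rows. On simulated data with 60 rows changed by 2 in log2, all 60 were recovered, with 3 false calls among 236 rows (Lgr5-High with Cd24-Low) and 4 among 252 (germ-free with conventionalized). The simulated noise was independent between rows, with no zeros. It was smaller than the SD of the sums in Lgr5-High with Cd24-Low, 0.79 to 1.29 in log2. The simulation therefore checks that the fit runs as meant and gives no power or error rate for these data. Exact permutation tests (scipy 1.17.1) were two-sided.

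The members, gene lists and comparisons were chosen with earlier results of these data known. Named were plain rows, sums, suffixed rows with a mean of 50 RPMMM in a group, and for each name the 5 other rows with the highest Pearson r. Low and Negative libraries pair by mouse, from animal numbers in the column names, and the correlations of their deviations from the group means were 0.147, 0.0998, 0.202 and -0.202. Alternatives covered pseudocount, filter, scaling, spread, summing, the replicate block and leaving out each library. Marker lists covered leukocyte, mesenchymal, red cell and intestinal epithelium microRNAs, which number 5, 5, 2 and 10 names in the table.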

Additional observations from a re-analysis of the deposited data

Results flagged for a closer look

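Of 287 sets of 4 libraries tested for a library far from the others (named rows and sums by group), 17 stood out by Dixon's criterion, and chance gives about 1 in 20. None was a sum over a name. The third Sox9-EGFP Low chow library gave 9 of them and has a column name that reads HFD. In that library mir-5105_+_1 was 183.25 RPMMM against 20.1 to 29.4 RPMMM in the other 3, mir-5105_+_3 was 127 against 11.4 to 23.96, mir-5105_-_1 was 68.2 against 15.4 to 20.8, and mir-5105_-_2 was 168 against 49.7 to 63.6. It also had mir-5109_-_5 at 404 against 206 to 215, mir-5109_-_2 at 256 against 121 to 142, mir-5109_+_5 at 189 against 87.6 to 95.5, and mir-5115_-_6 at 323 against 133 to 156 RPMMM. There mir-5109_-_6 was listed at 0.0 against 203 to 239.8 RPMMM. Its estimated depth, 3.48 in units of 1000000 reads, was the lowest of the 22 estimates, and its part was not tested.

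In villi the third library had 47.8 RPMMM of mir-5105_-_8 and 23.4 of mir-5105_-_7, and the second listed mir-5109_-_8 at 0.0. The third germ-free library had 196 RPMMM of mir-5105_-_6 and 377 of mir-5109_-_8, which was at 0 in the other 3, and the first had 372 RPMMM of the plain mir-5109 row. The second Cd24-Low library had 46.6 RPMMM of mir-5105_+_1, and the second conventionalized library 40.9 of mir-5115_-_5.

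In RPMMM, the Low minus Negative difference ran in opposite directions in the 2 mice whose Negative libraries were in lane 5 and the 2 in lane 4. The mean differences were 0.98 and -1.32 in log2 for the mir-5105 sum, and 1.68 and -2.44 for the mir-5115 sum. Median-of-ratios scaling lowered the mean over all mice, from -0.17 to -1.10 for mir-5105 and from -0.38 to -1.31 for mir-5115. Directions by mouse under that scaling were not examined. The difference between these pairs of mice was not tested.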

How the results depend on the processing

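Of the 11 member calls between Lgr5-High and Cd24-Low, all 11 were kept with a pseudocount of 10 and under both scalings and 10 under both other filters (mir-5109_-_2 was lost). With shared spread 9 rows passed, 6 of the 11 and 3 others, all lower, against 47 of all 236 rows in that direction. With a Cd24-Low library left out 8 to 21 rows passed, all lower, against 42 to 69 of all rows in that direction. The 3 calls between germ-free and conventionalized mice became 5 with a mean of at least 10 RPMMM, 5 with median-of-ratios scaling and 0 with shared spread. Over all rows these settings gave 179, 119 and 112 calls. When summed, 1 of 3 names passed. With a library left out 2 to 8 rows passed (8 without the fourth conventionalized library), against 91 to 132 of all rows. With the replicate block, 24 and 4 member rows passed, against 125 of 236 and 97 of 252 over all rows. These sample numbers are not known to pair animals. Correlations of same-numbered deviations were 0.108 and 0.351 for Lgr5-High with Cd24-Low and -0.548 to 0.169 for germ-free with conventionalized. The listed mRNA genes stayed at 0 calls under every alternative run, the replicate block included. Calls over all genes ran from 1 (without the first germ-free library) to 684. Median-of-ratios scaling moved the median of all rows by -0.12, 0.15, -1.02 and -0.46 in log2 for Lgr5-High with Cd24-Low, germ-free with conventionalized, Low with Negative and crypt with villi. Under it the Low minus Negative difference of the mir-5109 sum was -2.32 in place of -1.40. That of the mir-5105 sum was -1.10 in place of -0.17, and that of the mir-5115 sum -1.31 in place of -0.38. Over rows -2 to +8 alone, chosen after seeing the data, the crypt minus villus difference of mir-5109 was -0.83 in place of -0.33. Without single libraries the mir-5105 difference of Lgr5-High from Cd24-Low ran from -1.49 to 0.29, and the Low minus Negative differences of mir-5105 from -0.66 to 0.40 and of mir-5115 from -1.43 to 0.33. The names more divided than mir-5115 numbered 5 at a summed mean of 10 RPMMM and 0 at 500 RPMMM, in place of 2. Up to 1 mismatch gave 19 structural matches in place of 18. Apart from the alternative's own construction, the causes were not tested.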
